A study of Mus musculus with 17 samples.

Results

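Glutathione peroxidases, superoxide dismutases and catalase are the enzymes that remove superoxide and peroxides from cells. All probes that the array annotation assigns to Gpx1, Gpx3, Gpx4, Gpx7, Gpx8, Sod1, Sod2, Sod3 and Cat were taken, which gave 9 genes of 19057 on the array and 16 probes of 45281. RNA came from the left ventricles of 17 female C57/BL6 mice 4 weeks after surgery, taken in the posterior and inferior sectors of the free wall, outside the infarct. The methods of the study give the mice as C57BL/6N, 8 to 10 weeks old on entering the study. The MI+Val group held 5 mice with ligation of the left anterior descending coronary artery and valsartan, which blocks type 1 angiotensin II receptors, at 1 mg/kg/day in drinking water. The MI group held 6 mice with the ligation and no drug, and the sham group held 6 mice operated on without ligation. All mice shared the strain, the thoracic surgery and the time of tissue collection. Infarcted mice had been selected for a set range of ejection fraction at 24 h before randomization to treatment, and hearts were perfused before collection, according to the methods of the study. Each array was of 1 mouse, on a MouseWG-6 v.2 BeadChip, where each transcript is read as the brightness of beads coated with its probe.

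Superoxide dismutases turn superoxide into hydrogen peroxide, and catalase and the glutathione peroxidases then remove the peroxide. Glutathione peroxidases draw on glutathione, which is kept reduced with NADPH, and the selenium-dependent members carry a selenocysteine in the active site. The enzymes divide the cell among them. Sod1 works in the cytosol, Sod2 in mitochondria and Sod3 outside the cell, Cat in peroxisomes, Gpx1 in cytosol and mitochondria, Gpx3 in extracellular fluid, Gpx4 on membrane lipids, and Gpx7 and Gpx8 in the endoplasmic reticulum. In the heart, mitochondria and NADPH oxidases are known sources of the superoxide that these enzymes handle.

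The median signal of an array was 96.4 to 117 in MI+Val, 90 to 120.3 in MI and 104.7 to 115.2 in sham mice. A detection p-value under 0.01 was given to 14366 to 14876 probes in MI+Val, 13929 to 15206 in MI and 14108 to 14955 in sham arrays. The arrays lay on 3 chips that held the groups unevenly: chip 1 carried 1 MI+Val, 4 MI and 1 sham array, chip 2 carried 2 MI+Val, 1 MI and 3 sham arrays, and chip 3 carried 2 MI+Val, 1 MI and 2 sham arrays. Of 6 cardiomyocyte markers, 5 were tested and none was called between groups, and the adipocyte markers analysed were detected on at most 4 arrays. Of 3 atrial markers, Myl7 and Sln were detected on 5 arrays, and Myl4 varied widely, with a linear level of 124 to 1022 in MI+Val, 154 to 4911 in MI and 156 to 9083 in sham mice. Levels below are background-corrected, quantile-normalized log2 intensities, and a difference of 1 on this scale is a doubling. The number of mice limits the precision of every value, and in bulk tissue fewer cells of a type and less RNA per cell cannot be told apart.

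Tests (two-sided) with limma over 8236 genes gave the comparisons, and a gene was called at a Benjamini-Hochberg adjusted p under 0.05. Between MI and sham, 464 genes were called, 5.63% of those tested, and 3.31% were called higher in MI. All 9 members passed the filter on dim signal and were tested, with 12 of their 16 probes. Of the 9, 2 were called, Gpx1 and Gpx7, both higher in MI. Of the 12 probes, 2 were called in a fit on probes, where 4.96% of 11897 were called. The median difference over the members was 0.09, against -0.01 over all genes. The levels of the MI and sham mice did not overlap for 2 members, where 3.55% of all genes did not overlap.

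Gpx1, the most widely distributed selenium-dependent peroxidase, reduces hydrogen peroxide in cytosol and mitochondria. Its level was 12.37, 12.15, 12.15, 12.10 and 12.20 in the 5 MI+Val mice. In MI mice the lowest, median and highest levels were 12.18, 12.54 and 12.86, and in sham mice 11.74, 11.87 and 11.99. Every MI mouse and every MI+Val mouse lay above every sham mouse. The MI mice were also spread more widely, with an SD of 0.28 (n = 6), against 0.10 in MI+Val (n = 5) and 0.09 in sham mice (n = 6). Gpx1 was higher in MI than in sham by 0.63 (SE 0.11, 95% interval 0.40 to 0.87), a fold of 1.55, with a limma adjusted p of 0.00213. It ranked at place 59 of 8236 by p-value.

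The elevation of Gpx1 was present on each chip. MI exceeded sham by 0.64 on chip 1, by 0.58 on chip 2 and by 0.32 on chip 3. Each of these values rests on a single mouse on one side, 1 sham mouse on chip 1 and 1 MI mouse each on chips 2 and 3. With chip as a block in the model the difference was 0.525 (SE 0.12, adjusted p = 0.0212), where 2.27% of all genes were called. Of the 4 MI mice of chip 1, 3 (12.86, 12.71 and 12.67) were the highest of all 17, and the other MI mouse of that chip (12.18) was the lowest of the MI group. The highest, MI replicate 1, was the array of lowest median signal (90). Its Gpx1 signal before normalization was 5165, below those of MI replicates 3, 4 and 5. Without MI replicate 1, Gpx1 was still called, at 0.56 (limma adjusted p = 0.00469).

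Gpx7, a peroxidase of the endoplasmic reticulum lumen that uses a cysteine in place of selenocysteine, takes part in oxidative protein folding. Its level was 7.92, 7.88, 7.91, 8.01 and 7.83 in the MI+Val mice. The lowest, median and highest levels were 7.940, 8.16 and 8.30 in MI mice, and 7.47, 7.76 and 7.936 in sham mice. The highest level was of MI replicate 1, the array of lowest median signal. Its Gpx7 signal before normalization was 275.5, below the sham range of 278.8 to 334. Without MI replicate 1, MI minus sham was 0.38 (limma adjusted p = 0.0259). The MI and sham groups did not overlap, but the lowest MI mouse and the highest sham mouse nearly touched. In the authors' deposited normalized values the groups did overlap, with MI replicate 2 at 8.478 and sham replicate 6 at 8.497. Gpx7 was higher in MI than in sham by 0.41 (SE 0.09, 95% interval 0.22 to 0.60), a fold of 1.33, with a limma adjusted p of 0.0109. The difference was 0.37 on chip 1, 0.52 on chip 2 and 0.31 on chip 3. With chip as a block it was 0.40 (adjusted p = 0.0444), and in the authors' deposited normalized values it was 0.24 (limma adjusted p = 0.00581). The deposited scale compresses dim levels more than the main one, so 0.24 and 0.41 are not in like units. Gpx8, the other member resident in the endoplasmic reticulum, did not share this difference in size, at 0.03 (SE 0.10), and whether Gpx7 and Gpx8 differ in this was not tested.

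**Figure D1:**
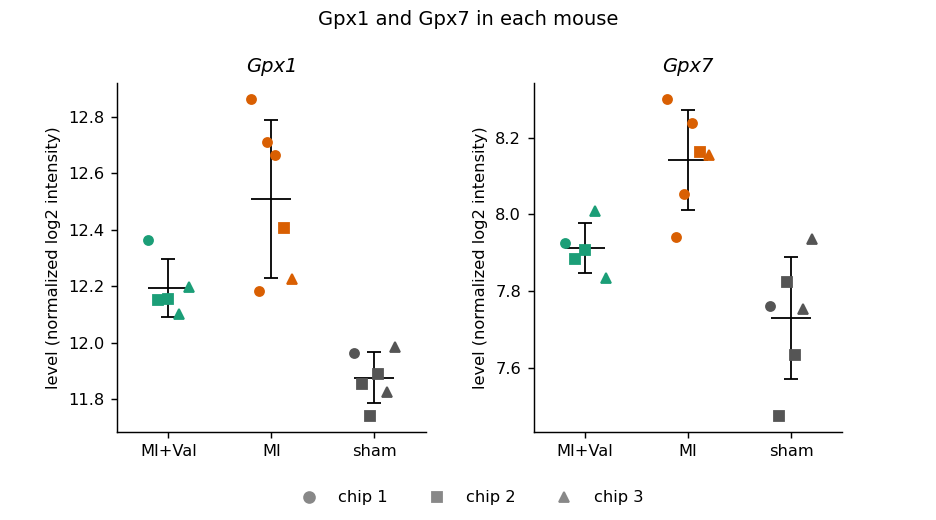
Levels of Gpx1 and Gpx7 (normalized log2 intensity, vertical axes) in each MI+Val, MI and sham mouse, with chip shown by the symbol and bars for the mean and SD. For both genes all 6 MI mice lie above all 6 sham mice, and the MI mice with the highest Gpx1 (12.67 to 12.86) are from chip 1.

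Upstream sequence was matched by symbol for 8 of the 9 members in RefSeq, build GRCm38.p6, with Sod3 unmatched. The 250 bases before the start of transcription are shown for Gpx1 and Gpx7, because both rose in MI, and for Sod1, because it alone among the matched members held the core of the antioxidant response element, to which the factor Nrf2 binds. Capitals mark matches on either strand to that core, TGACNNNGC, to the AP-1 site, spelled TGANTCA, to the GC box, spelled GGGCGG, and to the CCAAT box, read by its name, and runs of capitals in Sod1 include overlapping GC boxes. The stretches are chr9:108338830-108339079 on the plus strand for Gpx1, chr4:108406714-108406963 on the minus strand for Gpx7 and chr16:90220512-90220761 on the plus strand for Sod1.
Gpx1: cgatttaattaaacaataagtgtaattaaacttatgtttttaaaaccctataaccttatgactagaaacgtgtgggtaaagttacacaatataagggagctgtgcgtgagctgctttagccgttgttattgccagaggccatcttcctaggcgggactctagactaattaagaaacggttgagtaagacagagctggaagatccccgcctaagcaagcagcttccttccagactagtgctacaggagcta
Gpx7: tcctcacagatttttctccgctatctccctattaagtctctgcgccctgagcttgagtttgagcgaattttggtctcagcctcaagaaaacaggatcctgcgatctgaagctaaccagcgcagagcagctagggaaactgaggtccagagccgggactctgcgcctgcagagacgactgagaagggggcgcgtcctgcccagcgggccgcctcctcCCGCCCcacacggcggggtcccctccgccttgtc
Sod1: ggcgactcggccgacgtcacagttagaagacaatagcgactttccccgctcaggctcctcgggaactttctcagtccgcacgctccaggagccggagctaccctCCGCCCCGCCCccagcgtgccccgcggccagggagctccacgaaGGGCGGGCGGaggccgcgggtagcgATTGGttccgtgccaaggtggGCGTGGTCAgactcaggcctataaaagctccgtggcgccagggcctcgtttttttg

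The Gpx1 stretch held none of these letters and had a GC content of 42%, against a median of 52.4% over 32841 RefSeq stretches of the same length. The Gpx7 stretch held 1 GC box, beginning 34 bases before the start, at a GC content of 60.4%. The Sod1 stretch held the antioxidant response core beginning 56 bases before the start, 4 GC boxes and 1 CCAAT box. Over all 32841 stretches the antioxidant response core was present in 10.2%, the AP-1 site in 6.75%, the GC box in 32.7% and the CCAAT box in 33.9%. The matches are descriptions of letters in these windows, and nothing on binding was measured.

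Gpx3, a secreted selenium-dependent peroxidase of plasma and tissue fluid, was at 11.16, 10.83, 11.09, 11.59 and 11.76 in MI+Val mice. The lowest, median and highest levels were 11.40, 11.54 and 11.82 in MI mice, and 10.96, 11.13 and 11.74 in sham mice. All MI mice lay above 5 of the 6 sham mice, and the remaining sham mouse was within the MI range. MI minus sham was 0.38 (SE 0.15, 95% interval 0.05 to 0.70) and was not called (limma adjusted p = 0.174). It was 0.51 on chip 1 and 0.74 on chip 2, and -0.01 on chip 3, where the high sham mouse lay.

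Sod3, the extracellular copper and zinc dismutase that binds to matrix and vessel walls, was at 6.42, 6.95, 7.02, 6.84 and 7.23 in MI+Val mice. The lowest, median and highest levels were 6.40, 6.98 and 7.40 in MI mice, and 6.41, 6.60 and 6.68 in sham mice. Of the 6 MI mice, 5 lay above all sham mice and 1 below all of them, and 4 of the 5 MI+Val mice lay above all sham mice. The spread was 0.30 in MI+Val and 0.38 in MI mice, against 0.09 in sham mice (SD, n = 5, 6 and 6). MI minus sham was 0.39 (SE 0.15, 95% interval 0.07 to 0.72) and was not called (limma adjusted p = 0.154). Without the low mouse, MI replicate 2, it was 0.51 and was called (limma adjusted p = 0.0470). In that fit 3 members were called, where 4.25% of all genes were. This was 1 of 17 fits that left out a mouse, and the only one of them to call Sod3. Without MI replicate 3 or 5, MI minus sham was 0.31 and 0.32. Dixon's test for outliers did not flag MI replicate 2 (ratio 0.32, critical value 0.625). The difference was 0.28, 0.725 and 0.44 on chips 1, 2 and 3. Over all mice it was 0.17 in the deposited normalized values, where dim levels are compressed, and was not called. The signal of this probe was dim, between 141.4 and 295.4 over the MI mice.

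Gpx4, which reduces peroxidized phospholipids within membranes, had 3 probes. Through the probe used, levels ran between 11.91 and 12.36 in MI+Val, between 11.75 and 12.28 in MI and between 11.74 and 12.07 in sham mice. The groups overlapped, and MI minus sham was 0.09 (SE 0.11, 95% interval -0.13 to 0.31). In a fit on all probes, dim ones included, a brighter probe gave 0.11 (SE 0.05) and a dim probe below the filter gave 0.12 (SE 0.17). All 3 differences were small and of the same sign, and none was called.

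Gpx8, a membrane-anchored peroxidase of the endoplasmic reticulum, had 3 probes past the filter. MI minus sham was 0.03, 0.08 and 0.14 by these probes, with SEs of 0.09, 0.07 and 0.10 in a fit on all probes, dim ones included. Levels by the probe used ran between 9.58 and 9.91 in MI+Val, between 9.45 and 9.97 in MI and between 9.56 and 9.88 in sham mice. The 3 groups covered nearly the same range.

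Sod1, the abundant cytosolic copper and zinc dismutase, was at 12.89, 12.73, 12.72, 12.55 and 12.57 in MI+Val mice. The lowest, median and highest levels were 12.32, 12.50 and 12.65 in MI mice, and 12.44, 12.64 and 12.76 in sham mice. The groups overlapped, with MI minus sham at -0.13 (SE 0.09, 95% interval -0.31 to 0.06), not called. Below the filter lay 2 further Sod1 probes, designed on cDNA clones, with detection on 0 and 4 of the 17 arrays, and no level is read from them.

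Sod2, the manganese dismutase of the mitochondrial matrix, ran between 13.45 and 13.86 in MI+Val, between 13.35 and 13.62 in MI and between 13.34 and 13.89 in sham mice. MI minus sham was -0.11 (SE 0.10, 95% interval -0.32 to 0.11), not called. Levels differed by chip. The highest levels of the MI+Val group (13.79 and 13.86) and of the sham group (13.67, 13.74 and 13.89) were all from chip 2, and with chip as a block the difference was 0.01 (SE 0.09).

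Cat, the heme enzyme that splits hydrogen peroxide in peroxisomes, was at 8.39, 8.52, 9.08, 9.03 and 8.78 in MI+Val mice. The lowest, median and highest levels were 7.90, 8.60 and 9.02 in MI mice, and 8.52, 8.78 and 8.96 in sham mice. Of the MI mice, 3 lay below all sham mice and 2 above them, with an SD of 0.45 in MI (n = 6), against 0.20 in sham mice (n = 6). MI minus sham was -0.18 (SE 0.18, 95% interval -0.54 to 0.19), not called, and with chip as a block it was 0.03 (SE 0.17). The 3 low MI mice and the highest were all from chip 1, where the MI+Val mouse (8.39) and the sham mouse (8.52) were also the lowest of their groups. A dim Cat probe, detected on 1 of 17 arrays, gave 0.34 (SE 0.12, adjusted p = 0.217 over all probes).

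**Figure D2:**
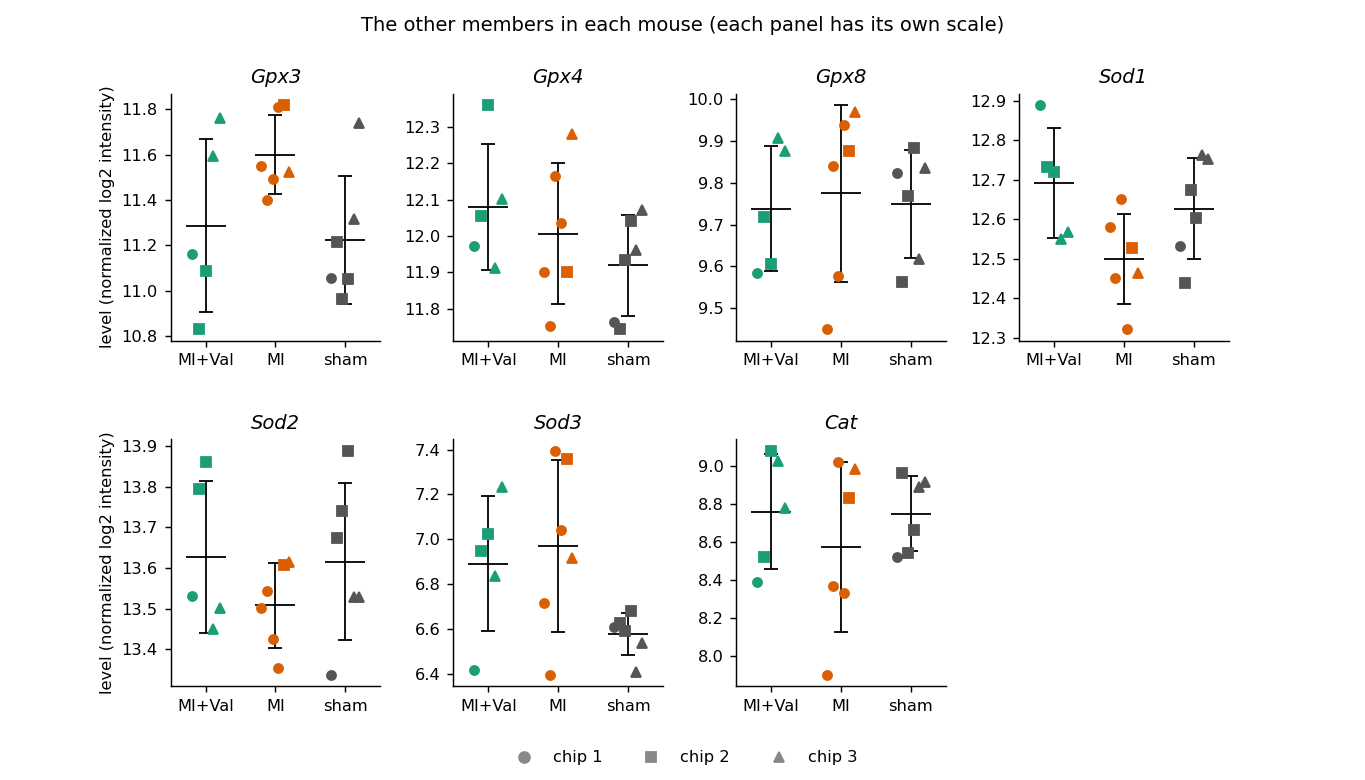
Levels of the 7 members that were not called (normalized log2 intensity, vertical axes, each panel on its own scale) in each MI+Val, MI and sham mouse, with chip shown by the symbol and bars for the mean and SD. For Sod3, 5 of 6 MI mice lie above the narrow sham group and 1 lies below it, and for Cat the MI mice range from 7.90 to 9.02.

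**Figure D3:**
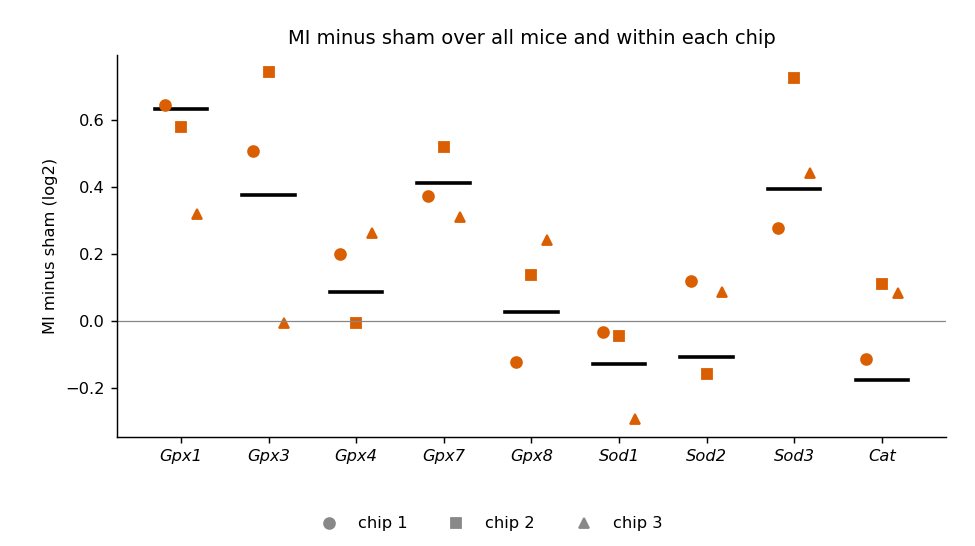
MI minus sham (log2, vertical axis) for each member over all mice (bars) and within each chip (symbols). Chip 1 holds 1 sham mouse, and chips 2 and 3 each hold 1 MI mouse. Gpx1, Gpx7 and Sod3 are above 0 on every chip, and for Sod2 and Cat the values over all mice lie below those of chips 1 and 3.

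The comparison of MI+Val with MI asked what valsartan changed in infarcted hearts. No member was called, and none of the 8236 genes was called (0%) by limma, while 760 genes (9.23%) had an unadjusted p under 0.05. Of the members 2 had such a p, and for none did the levels of the groups fail to overlap, as they did for 1.12% of all genes. Gpx1 averaged 12.19 ± 0.10 in MI+Val mice and 12.51 ± 0.28 in MI mice (SD, n = 5 and 6), a difference of -0.32 (SE 0.12, 95% interval -0.56 to -0.07, limma adjusted p = 0.390). Of the MI+Val mice 3 lay below the lowest MI mouse, and with chip as a block the difference was -0.21 (SE 0.12). Gpx7 averaged 7.91 ± 0.06 in MI+Val mice and 8.14 ± 0.13 in MI mice (SD, n = 5 and 6), a difference of -0.23 (SE 0.09, 95% interval -0.43 to -0.03, limma adjusted p = 0.458). Of the MI+Val mice 4 lay below the lowest MI mouse, and the difference was between -0.27 and -0.21 on the 3 chips.

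For the remaining members, MI+Val minus MI was -0.31 for Gpx3 (95% interval -0.65 to 0.03), 0.07 for Gpx4 (-0.16 to 0.31), -0.04 for Gpx8 (-0.27 to 0.19) and 0.19 for Sod1 (-0.004 to 0.39). It was 0.12 for Sod2 (95% interval -0.11 to 0.35), -0.08 for Sod3 (-0.42 to 0.26) and 0.19 for Cat (-0.20 to 0.57). None was called, and each interval included 0. The median over the members was -0.04, against 0.004 over all genes. The MI mice enter both this comparison and that of MI with sham, which are therefore not independent of each other.

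Between MI+Val and sham, 1 of 8236 genes was called (0.0121%) and no member. Gpx1 averaged 12.19 ± 0.10 in MI+Val mice and 11.88 ± 0.09 in sham mice (SD, n = 5 and 6). The difference of 0.32 (SE 0.12, 95% interval 0.07 to 0.56) was not called at a limma adjusted p of 0.486, although all 5 MI+Val mice lay above all sham mice. Such a lack of overlap was found for 0.777% of all genes. Gpx7 was at 0.18 (SE 0.09, 95% interval -0.01 to 0.38) and Sod3 at 0.32 (SE 0.16, 95% interval -0.02 to 0.65), with adjusted p-values of 0.696 and 0.693 by limma. The other 6 members lay between -0.01 and 0.16.

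The F test over the 3 groups called 395 genes (4.8%) at an adjusted p under 0.10, and 2 members, Gpx1 (limma adjusted p = 0.00944) and Gpx7 (limma adjusted p = 0.0387). In the order of their means, MI was highest, MI+Val next and sham lowest for both genes. Gpx3 and Sod3, which were not called, had the same order. The MI+Val mean was not set apart from its neighbours by the adjusted tests, neither from MI nor from sham. With chip as a block, the F test called 2.34% of all genes, among them Gpx1 (limma adjusted p = 0.0646) and not Gpx7 (limma adjusted p = 0.131).

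**Figure D4:**
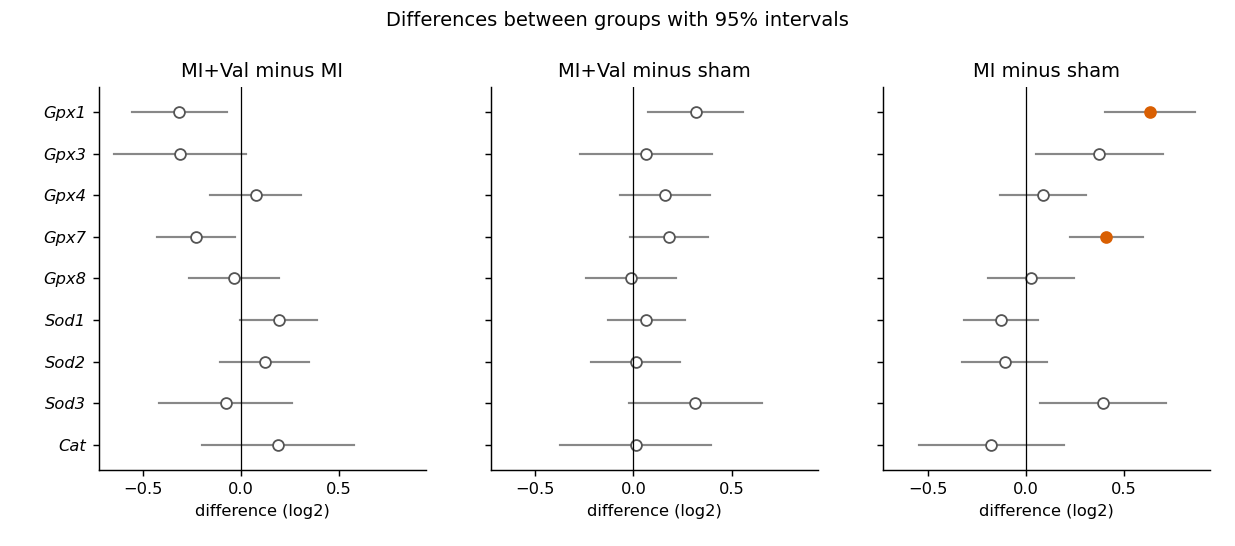
Differences between groups (log2, horizontal axes) for the 9 members, as MI+Val minus MI, MI+Val minus sham and MI minus sham, with 95% intervals and filled points for genes called at an adjusted p under 0.05. Only Gpx1 (0.63) and Gpx7 (0.41) in MI minus sham are filled.

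The genes whose levels followed a called member most closely were ranked by the mean absolute difference of log2 levels, each gene centred on its mean over the 17 arrays. Nearest to Gpx1 were C1qa (0.0819), a chain of complement C1q made by macrophages, Cib1 (0.1), a calcium- and integrin-binding protein, and Plcg2 (0.118), a phospholipase C of blood cells. The median of this distance over 8235 genes was 0.316. MI minus sham was 0.53 for C1qa, 0.61 for Cib1 and 0.73 for Plcg2. Nearest to Gpx7 were Smim14 (0.0659), Anxa5 (0.0738), a phospholipid-binding annexin, and Prmt2 (0.0863), an arginine methyltransferase, with a median of 0.251 over all genes. Gpx7 itself was at place 37 of 8235 in nearness to Gpx1, the nearest of the members, and Cat at place 7146 was the farthest. These distances are descriptions over 17 arrays that share groups and chips.

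**Figure D5:**
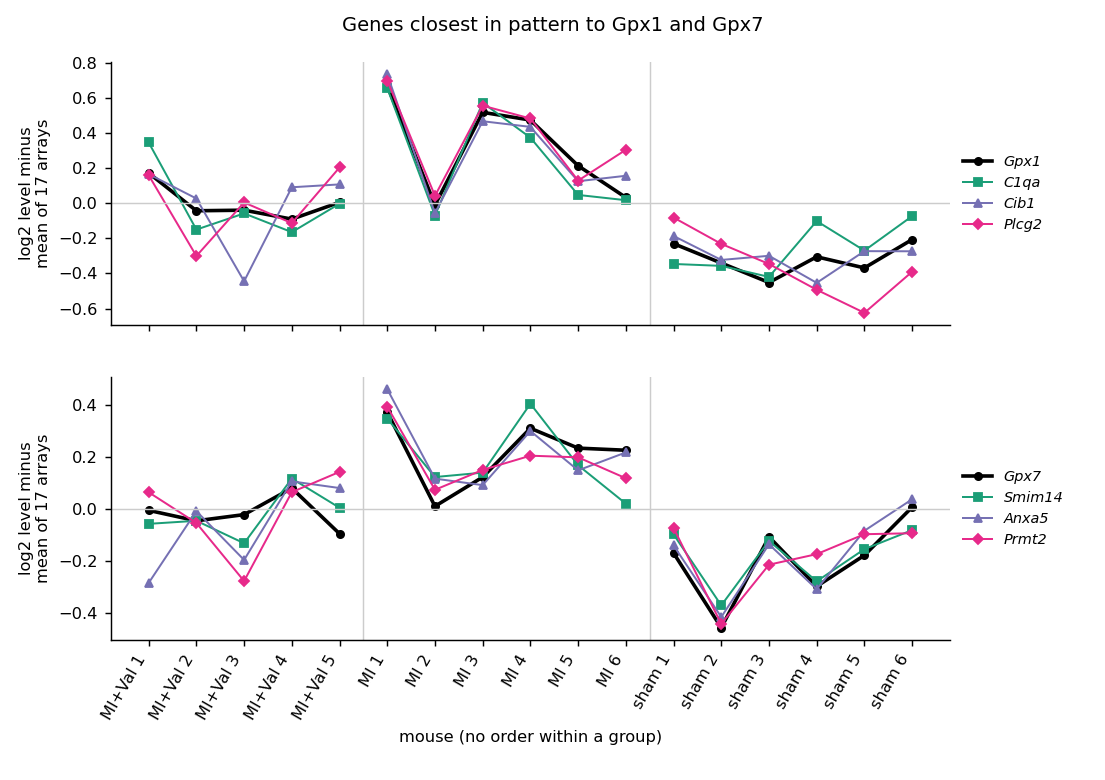
Log2 level minus the mean of the 17 arrays (vertical axes) in each mouse for Gpx1 and Gpx7 with the 3 genes nearest to each, and lines join mice of a group only to guide the eye. C1qa, Cib1 and Plcg2 share with Gpx1 the high values of MI replicates 1, 3 and 4 and the low value of MI replicate 2.

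Macrophage markers were all above 0 in MI minus sham. Of 8 markers 6 were tested, and limma called 5 of them higher in MI (Csf1r 0.54, C1qa 0.53, C1qb 0.57, C1qc 0.53 and Lyz2 0.77), while Adgre1 was at 0.55 with an adjusted p of 0.146. Their summed level, on the linear scale, ranged between 4193 and 5766 in MI+Val, between 4871 and 8943 in MI and between 3059 and 4604 in sham mice. The 3 MI mice with the highest Gpx1, all from chip 1, had the 3 highest sums of all mice (6755, 8943 and 7150). The MI mouse with the lowest Gpx1 was not the lowest in this sum, at 5558 against 4871 in MI replicate 6. With chip as a block, 1 of the 6 markers was called, Lyz2 (0.66). Of the defining markers, Fcgr1 was detected on at most 6 arrays and Cd68 was not analysed here. The part of macrophages in the result for Gpx1 was not tested.

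Fibroblast markers were all above 0 in MI minus sham, with a median of 0.30, and 1 of 6 was called, Tcf21 (0.70). Tcf21 was at 0.64 with chip as a block, with a limma adjusted p of 0.0649, and none of the 6 was called in that fit. Their summed level was 1330 to 1748 in MI+Val, 1475 to 1849 in MI and 1171 to 1567 in sham mice, and their part in the result for Gpx7 or Sod3 was not tested. Red cells are rich in catalase and Gpx1. The summed level of the 2 erythroid markers tested, Hba-a1 and Alas2, varied widely within groups, between 6216 and 23646 in MI+Val, between 4275 and 24245 in MI and between 11632 and 25548 in sham mice, and neither was called. Of the cardiomyocyte markers, 5 of 5 were below 0 in MI minus sham, with a median of -0.30 and summed levels of 16968 to 21537 in MI+Val, 13570 to 20191 in MI and 16026 to 21802 in sham mice. In the fit with the chip block 4 of the 5 were below 0 and the median was -0.20. Pln was at -0.27, the myosin heavy chain Myh6 at -0.22 and Tnni3 at -0.20. The calcium release channel Ryr2 was at -0.06 and Actc1, the cardiac actin, at 0.03. The part of cardiomyocytes in the members' differences was not tested.

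The wider pathway was covered by 49 companion genes, of which 30 were tested. None was called higher in MI than in sham and 2 were called lower, where 2.32% of all genes were called lower, and the median difference was -0.02. Glrx2, the glutaredoxin of mitochondria, averaged 6.00 ± 0.26 in MI and 6.57 ± 0.27 in sham mice (SD, n = 6 each), a difference of -0.57 (SE 0.15, limma adjusted p = 0.0292). Maob, an outer mitochondrial membrane enzyme that releases hydrogen peroxide as it oxidizes amines, averaged 8.70 ± 0.26 in MI and 9.21 ± 0.15 in sham mice (SD, n = 6 each), a difference of -0.52 (SE 0.13, limma adjusted p = 0.0228). Neither call held with chip as a block, where the differences were -0.50 for Glrx2 and -0.51 for Maob with limma adjusted p-values of 0.124 and 0.0855. None was called without MI replicate 1 or sham replicate 5, and 1 was called without MI replicate 3, 4 or 6 or sham replicate 3, 4 or 6. No companion was called between MI+Val and MI.

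By role, no other companion passed the test between MI and sham. Gpx2, Gpx5 and Gpx6, the remaining glutathione peroxidases, were not tested and were detected on at most 3 arrays. Of copper delivery to the dismutases, the chaperone Atox1 was at 0.37 (adjusted p = 0.116) and the copper importer Slc31a1 at 0.22 (adjusted p = 0.155), both by limma. Of glutathione synthesis, Gclm, the regulatory subunit of the rate-limiting ligase, was at 0.23, and Gclc, detected on 0 arrays, was not tested. Of NADPH supply, the cytosolic isocitrate dehydrogenase Idh1 was at -0.36 (limma adjusted p = 0.126) and the malic enzyme Me1 at 0.22. Of selenoprotein synthesis, Secisbp2, which directs selenocysteine insertion, was at -0.27, and Selenop, the plasma carrier of selenium, was at 0.22. Of peroxisome import, the receptor Pex5 was at -0.26 and the docking protein Pex14 at 0.28. Of the superoxide sources, the NADPH oxidase subunit Ncf4 was at 0.48 (limma adjusted p = 0.0991). Nox4 (detected on 8 arrays) and Cybb, Ncf1 and Maoa (detected on 0) were not tested, so nothing is read here on their change. In the study itself, Nox4, like Gpx1, belonged to the gene cluster overexpressed in MI against sham. Of Nrf2 and its targets, Hmox1 and Txnrd1 (detected on 0 and 5 arrays) were not tested. Among the genes tested, 0 of 4 were called, with Nrf2 itself (Nfe2l2) at 0.18 and its target Nqo1, a quinone reductase, at -0.10. Some of these values lay closer to 0 with chip as a block, at 0.20 for Atox1, -0.08 for Secisbp2, 0.14 for Selenop and 0.15 for Pex14, and none of the 30 companions was called in that fit.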

How the data were processed

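RNA of 17 mice was measured, 1 array a mouse, in the groups MI+Val, MI and sham of the sample labels. The authors deposited, for 45281 probes, the bead signal as an intensity, not background-corrected or normalized, and beside it a detection p-value from the scanner's software. The authors also deposited log2 values, variance-stabilized and spline-normalized with lumi under R 3.0.1, which were used as an alternative. Probe names came from the platform annotation, with 1 gene symbol for 34885 probes, several for 18 and none for 10378.

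Normalization and tests used limma 3.58.1 in R 4.3.3. Background, inferred by neqc through the detection p-values, was removed, and values with an offset of 16 were quantile normalized on the log2 scale. The offset shrinks differences of dim genes. Probes were kept where the 33rd percentile of signal reached 125. A gene was read by its probe of largest interquartile range, which favours the probe with the larger change. One linear model with the 3 groups and no covariate gave the F test (threshold 0.10) and the 3 comparisons (threshold 0.05), with Benjamini-Hochberg adjustment over all genes. A further fit took all probes. The model was tested on simulated data. Chip numbers came from the array identifiers.

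The members, companion and marker lists were chosen with earlier results of these data known. Genes named were all members, companions called or at most the 2 with the smallest p of a role, the 3 genes nearest to each called member, and markers by list. The methods' filter on variance was left out. Alternatives changed normalization, filters, probe choice, blocks, array weights, groups fitted, test and mice. Replicate numbers were treated as names. Each limma test set a group difference against the spread between mice within groups, with variances moderated over genes. In the main model, without a chip term, that spread includes differences between chips. Because the chips held the groups unevenly, such differences also enter the group differences. Plots used matplotlib 3.10.9 and Python 3.11.15.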

Additional observations from a re-analysis of the deposited data

How the results depend on the processing

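Gpx1 and Gpx7 were called higher in MI than in sham under each of 30 alternatives, Gpx1 with differences between 0.525 and 0.70 and adjusted p-values between 0.000456 and 0.0216, and Gpx7 with differences between 0.24 and 0.45 and adjusted p-values between 0.00538 and 0.0444. No member was called in MI+Val vs MI under any alternative, and none in MI+Val vs sham except 1, Gpx1, by the methods' t-test at its unadjusted threshold with a fold of at least 1.2. With chip as a fixed block 1 member was called in the F test, and 0 companions were called between MI and sham. The authors' deposited values gave 1 companion, and leaving out each mouse gave 0 to 2.

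Signs turned only for differences that were not called in any setting, and the cause was not tested unless named. Scaling to the 75th percentile gave -0.0194 for Gpx8 in MI vs sham, and -0.034 for Sod2 and -0.018 for Cat in MI+Val vs sham. Without the filter a dim clone-based probe stood for Sod1, which gave 0.34 in MI vs sham and -0.0899 in MI+Val vs MI. The brightest probe gave -0.0088 for Gpx4 in MI+Val vs MI. Chip as a fixed block gave 0.0073 for Sod2 and 0.0285 for Cat in MI vs sham and -0.016 for Cat in MI+Val vs MI. Array weights gave -0.0546 for Gpx3 in MI+Val vs sham.

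Leaving out each mouse in turn gave, for Gpx8, -0.0126 to 0.0912 in MI vs sham, -0.102 to 0.002 in MI+Val vs MI and -0.0527 to 0.028 in MI+Val vs sham. It gave -0.193 to 0.0399 for Sod3 in MI+Val vs MI and, in MI+Val vs sham, -0.0545 to 0.178 for Gpx3, -0.0465 to 0.0664 for Sod2 and -0.0698 to 0.103 for Cat. Without MI replicate 2, Sod3 was called in MI vs sham, as given above.

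With the replicate number as a block, Gpx8 was at 0.0175 in MI+Val vs sham, 2 members were called in MI vs sham and no call changed. The labels do not say whether the numbers mark pairs. Of 16 same-numbered pairs of arrays, 4 correlated over 0.1, and 6 of 17 arrays correlated best with their own number. The highest correlation, 0.43, was between MI+Val replicate 1 and MI replicate 1. The replicate 1 arrays all lay on chip 1, so for them a pairing cannot be told apart from chip.

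The dim probes of Sod3 (signal from 141.4) and of Cat, Sod1 and Gpx4 below the filter limit what can be read from them.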
